A study of Homo sapiens with 33 samples.

Results

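Of the 26475 genes of the count table, 67 were read at high counts in HEK293T cells that had received the cytosine base editor Target-AID. In every other group their counts were at least 10 times lower. The 67 genes were chosen by the counts themselves. Raw counts were summed over the 3 libraries of each of 11 groups, and a gene was kept where both Target-AID groups held at least 80 counts and the smaller of them was at least 10 times the sum in every one of the other 9 groups. The globin genes HBB and HBD also met these limits, which makes 69, and were left out by the rule. The difference between Target-AID and the other groups is therefore how the genes were chosen, and it is given below as a description with no test.

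HEK293T is a human embryonic kidney line that carries the SV40 large T antigen. A base editor joins a nicking Cas9 (nCas9) to a deaminase. Every construct was delivered on a plasmid that also encoded GFP. Sorting for GFP followed 36 to 40 h later, and the RNA is from the sorted cells. The constructs Target-AID, SpACE, ABEmax, miniABEmax-V82G and nCas9 were each given with a guide RNA to HEKsite2 and with a guide RNA to RNF2, and GFP was given with no guide, 3 libraries in each group. The labels make nCas9 and GFP the negative controls, ABEmax and miniABEmax-V82G the controls for adenine editing and Target-AID the control for cytosine editing. The transfection was transient and the libraries are bulk RNA, so a high level in a few cells and a low level in many cannot be told apart. The labels number the replicates and do not say that they came from separate cultures, so the p-values below measure the spread between libraries only.

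Total counts ran from 6790209 to 11200406 per library. The 67 genes together took 0.375% of the counts in Target-AID with HEKsite2 and 0.346% in Target-AID with RNF2, and between 0.00254% and 0.00317% in the other 9 groups. The 13 genes listed as markers of the HEK293 line were all read in Target-AID, with a summed level of 748 to 797 CPM (the usual depth-scaled count, here on library sizes adjusted by edgeR's TMM method) with HEKsite2 and 788 to 795 CPM with RNF2. In nCas9 the same sum was 949 to 982 and 927 to 982 CPM.

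Target-AID carries PmCDA1, a cytidine deaminase of lamprey of the AID/APOBEC family, on nCas9. Deaminases of this family turn cytosine into uracil in single-stranded DNA, and some of them act on RNA as well. Tissue-restricted genes such as those of muscle, lens, germ cells or immune cells are normally held silent in a kidney line by the absence of their activators, by methylation of CpG-rich promoters and by repressive chromatin.

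The promoters of the group did not share one sequence type. RefSeq (GRCh38.p14) gave a position for all 67 genes and a promoter window, from 250 bases before to 50 after a transcript start, for 53 of them. Windows of 4 marker genes of the group are printed as examples that differ in CpG number, from 8 to 44. All 4 lie above the group's median G+C content. Capitals mark the motifs found on either strand, here the GC box (GGGCGG) and the CCAAT box (CCAAT).
OLFM1 promoter, chr9:135075255-135075554, plus strand: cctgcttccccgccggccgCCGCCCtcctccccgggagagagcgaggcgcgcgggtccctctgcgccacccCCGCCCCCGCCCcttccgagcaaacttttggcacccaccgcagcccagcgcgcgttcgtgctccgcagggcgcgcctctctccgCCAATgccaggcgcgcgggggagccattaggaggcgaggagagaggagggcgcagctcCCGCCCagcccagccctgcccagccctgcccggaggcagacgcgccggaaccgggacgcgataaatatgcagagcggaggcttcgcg
VPS9D1 promoter, chr16:89720849-89721148, minus strand: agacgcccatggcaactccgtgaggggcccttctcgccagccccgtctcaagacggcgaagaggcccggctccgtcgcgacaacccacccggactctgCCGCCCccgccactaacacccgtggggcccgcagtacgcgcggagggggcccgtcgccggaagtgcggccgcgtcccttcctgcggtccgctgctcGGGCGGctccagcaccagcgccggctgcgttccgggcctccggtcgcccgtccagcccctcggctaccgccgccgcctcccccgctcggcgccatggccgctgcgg
BEST2 promoter, chr19:12751541-12751840, plus strand: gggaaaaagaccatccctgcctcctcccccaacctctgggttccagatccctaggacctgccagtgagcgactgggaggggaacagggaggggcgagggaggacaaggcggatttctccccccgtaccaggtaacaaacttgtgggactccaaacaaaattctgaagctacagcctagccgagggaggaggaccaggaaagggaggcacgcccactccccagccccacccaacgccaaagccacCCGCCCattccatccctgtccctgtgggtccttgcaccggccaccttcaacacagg
TNNT2 promoter, chr1:201377631-201377930, minus strand: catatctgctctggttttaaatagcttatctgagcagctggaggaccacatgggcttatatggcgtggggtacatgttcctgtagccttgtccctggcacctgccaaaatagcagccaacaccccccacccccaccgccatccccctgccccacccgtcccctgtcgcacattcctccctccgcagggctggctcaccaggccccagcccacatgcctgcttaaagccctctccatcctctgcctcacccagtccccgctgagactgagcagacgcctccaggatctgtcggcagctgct
The OLFM1 window held 38 CpG and 4 GC boxes, and the VPS9D1 window 44 CpG and 2 GC boxes. The BEST2 window held 9 CpG and 1 GC box. The TNNT2 window held 8 CpG and none of the 8 motifs searched. The window of another marker gene, KCNJ10, held 29 CpG and that of PROB1 held 25.

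Across the 53 windows the median was 13 CpG and 59% G+C. A window belongs to 1 transcript start of its gene, and for MYOM1, CRYBA4 and EPHB6 that start lies inside the annotated gene and not at its outer end. The 17946 promoters of the whole table had a median of 21 CpG and 62% G+C. The 5206 promoters of genes that stayed under 10 counts in each non-Target-AID group, where silent genes are found, had 5 CpG and 51% G+C. CpG-rich windows, with over 55% G+C and a CpG observed-to-expected ratio over 0.6, made up 39.6% of the group, 56.3% of all promoters and 18.9% of the promoters of the low-count genes. The 8 motifs were searched on both strands. The GC box stood in 49.1% of the group and 55.3% of all promoters, the CCAAT box in 20.8% and 36.4%, the TATA box (TATAAA) in 9.43% and 9.82%, and the E-box (CACGTG) in 7.55% and 8.54%. In the promoters of low-count genes these 4 shares were 25.5%, 36.5%, 18.2% and 5.61%. Against these genes the group thus held the GC box more often and the TATA box less often. The 2 sets are unlike in other ways. Protein-coding genes made up 86.8% of the group's windows and 65.8% of the low-count ones. Some members also exceed the limit of 10 counts, such as SPA17 with 389 in GFP. Promoters of genes with at least 10 counts in some other group held the 2 motifs in 67.5% and 6.41%. A short core of the heat shock element (GAANNTTC, where N is any base) stood in 6 windows of the group, that of EPHB6 among them, 11.3%, against 5.84% of all promoters and 8.34% of the promoters of low-count genes. The AP-1 site (TGANTCA) stood in 1 window, 1.89% against 6.38% of all promoters and 10.6% of the promoters of low-count genes. The cAMP response element (TGACGTCA) and the C/EBP-ATF element (TGATGCAA) were in 0 of the 53 windows, against 2.48% and 0.747% of all promoters. Among promoters of low-count genes they were in 0.845% and 1.25%. A match is only a run of letters in the window, and a window without a match says nothing of the factor.

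The genes lay on 21 of 24 chromosomes, with at most 8 on 1 chromosome (chromosome 1). Of the 67, 56 are annotated as protein coding. Only 7 pairs lay within 1 Mb of each other. The closest pair was OR8A1 and SPA17 on chromosome 11, 102.5 kb apart, and BEST2 and CACNA1A on chromosome 19 were 448.0 kb apart. On the plus strand were 35 genes and on the minus strand 30.

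All 67 genes had at least 1 count in each of the 6 Target-AID libraries. For all 67 the lowest CPM of any Target-AID library was above the highest CPM of the other 27 libraries, as the rule all but requires. The sum over the 6 Target-AID libraries had a median of 645 counts and the sum over the other 27 a median of 21. Outside Target-AID, 4 genes had 0 counts, 7 had 1 to 3, 43 had 4 to 99 and 13 had at least 100. The heat map of CPM by library shows the 2 Target-AID groups as separate bright blocks for every gene, on backgrounds that differ from gene to gene.

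**Figure D1:**
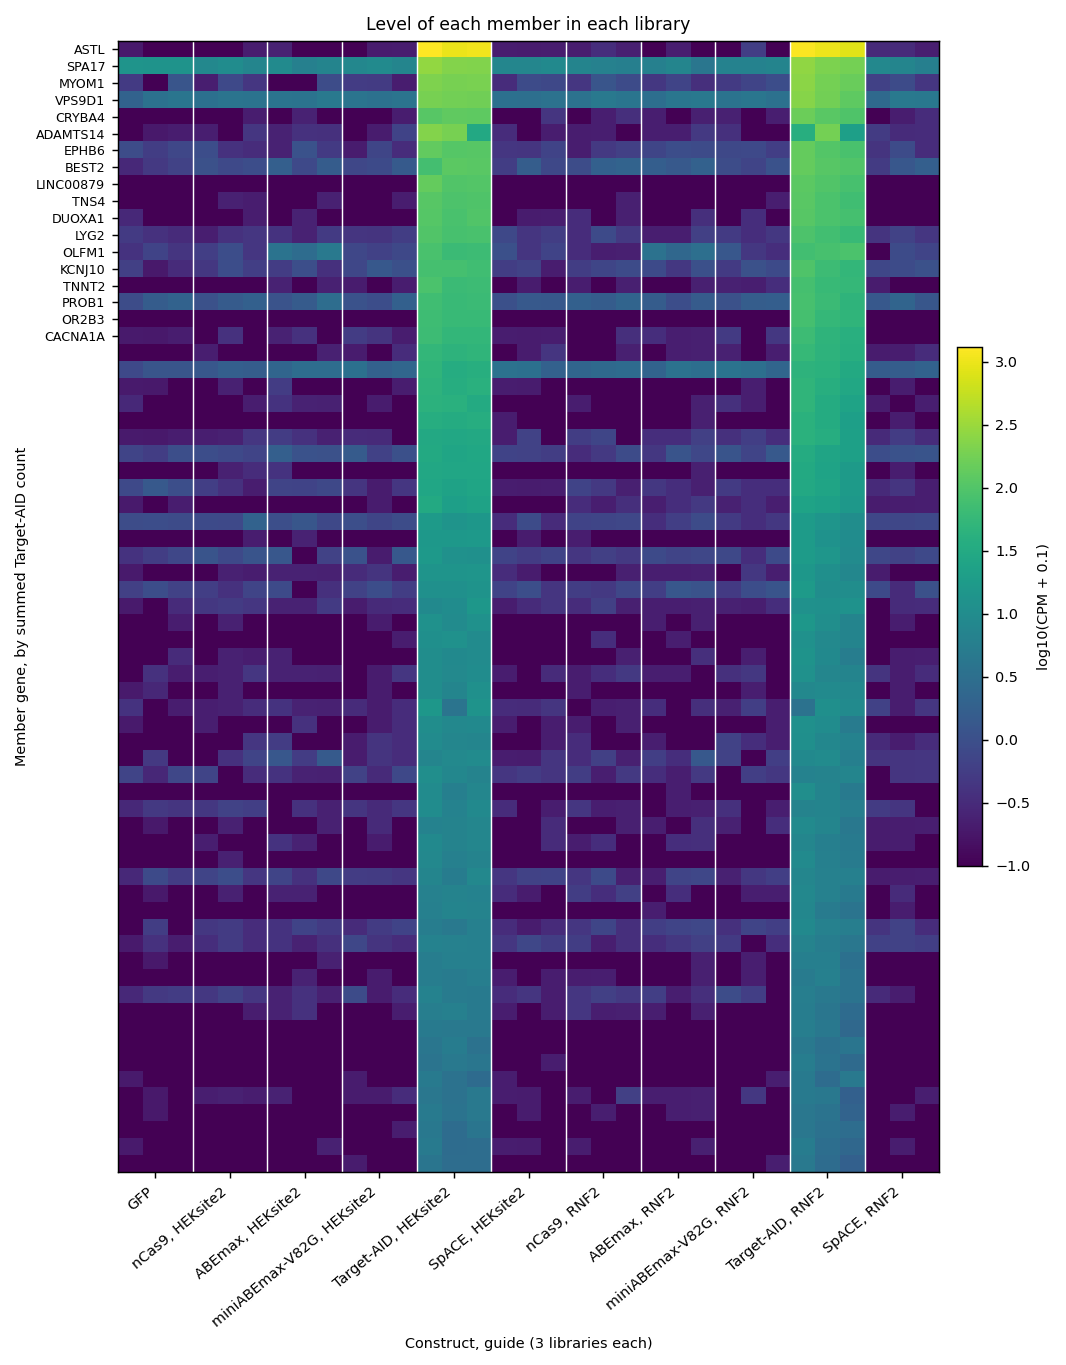
Levels of the 67 genes in the 33 libraries, as log10 of CPM plus 0.1, with genes in rows by summed Target-AID count, the 18 highest named, and libraries in columns by group. The 6 Target-AID libraries are the bright columns, and the rows differ in their level elsewhere, from 0 counts in 27 libraries to 1844 counts for SPA17.

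Counts were very unequal within the group. ASTL alone, which encodes ovastacin, an egg protease of the astacin family, held 60750 of the Target-AID counts, or 30.3% of the group's total. The 5 highest genes together held 50.7% and the 18 highest 82.4%. Scaled to exon length, as RPKM averaged over the 6 libraries, the order was different. ASTL stood at 660 RPKM, CRYBA4 at 154, LYG2 at 68.9, LINC00879 at 57.9, OR2B3 at 56.9 and VPS9D1 at 52.4. The ASTL level was higher per length than that of 99.9% of all 25005 genes with a length.

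At the rule's limits the values were continuous. Just inside the count limit, the smaller Target-AID sum was 85 for SLC35G3, 92 for LRRTM1 and 97 for LOC283731. Just outside it were LOC100130331 with 69, KRT19 with 68 and DPP6 with 68. Just inside the fold limit were WFIKKN2 with 148 counts against at most 14 elsewhere (10.6 times), CIITA with 231 against 21 (11 times) and NLRP3 with 155 against 14 (11.1 times). Just outside it were HIST2H2BC at 9.91 times, KLF3-AS1 at 9.11 and PLB1 at 8.75.

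Germ cell and cilia genes gave 7 members, with a median of 471 summed counts in Target-AID, and included ASTL, the member with the most counts at 60750. ASTL was at 1312, 1007 and 1072 CPM in the 3 libraries of Target-AID with HEKsite2 and at 1220, 1021 and 845 CPM with RNF2. In the other 27 libraries it had 22 counts in all, and its highest level was 0.482 CPM, in a miniABEmax-V82G library with RNF2. SPA17, a sperm surface protein with a calmodulin-binding motif, was at 279, 224 and 217 CPM with HEKsite2 and at 272, 204 and 183 with RNF2. Unlike ASTL it was read in every library, between 3.98 and 13.5 CPM elsewhere, so its pooled level was 29 times higher in Target-AID. The other 5, with 292 to 1584 counts, were BRDT, a testis bromodomain protein, MAGEC3, FAM47A, C6orf10 and RSPH9, a radial spoke protein of motile cilia.

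Muscle structure was represented by 4 genes. MYOM1, myomesin of the sarcomere's M-band, was at 206, 185 and 195 CPM with HEKsite2 and at 255, 184 and 149 with RNF2, and at most at 1.12 CPM elsewhere. TNNT2, the cardiac troponin T that anchors the troponin complex to tropomyosin, was at 89.7, 65.2 and 67.5 CPM with HEKsite2 and at 80.5, 58.6 and 54.8 with RNF2. All other libraries together held 13 counts of it, and GFP and nCas9 with HEKsite2 held 0. MYBPC2, the fast-muscle myosin-binding protein C, had 1417 Target-AID counts and SGCD, delta-sarcoglycan, 2257. Of the 24 other troponin and sarcomere genes, 8 had enough counts for the test, and 5 of these were not called with HEKsite2 and 7 with RNF2. Against nCas9 with HEKsite2, TTN was higher (log2 fold change 0.59 ± 0.210 SE, edgeR adjusted p = 0.0228), and TNNT1 (-0.76 ± 0.110, adjusted p = 5.25e-07) and TPM1 (-0.20 ± 0.071, adjusted p = 0.0234) were lower. With RNF2, TNNT1 was lower again (-0.80 ± 0.112, adjusted p = 4.03e-07) and none was higher. Among all genes tested in this contrast, 40.6% were called with HEKsite2 and 35.2% with RNF2.

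Channels and transporters gave 7 genes. BEST2, a bestrophin that conducts chloride when calcium rises, was at 75.8, 121 and 116 CPM with HEKsite2 and at 140, 113 and 98.4 with RNF2, and at 0.199 to 1.92 CPM elsewhere. KCNJ10, the inward rectifier Kir4.1 of glia and kidney tubule, was at 78.9, 79.3 and 70.8 CPM with HEKsite2 and at 96.8, 66.0 and 53.6 with RNF2. Its highest level elsewhere was 1.26 CPM. CACNA1A, the pore subunit of the P/Q-type calcium channel, was at 66.2, 52.9 and 52.8 CPM and at 66.3, 47.7 and 40.2 CPM, against 31 counts in the other 27 libraries. SLC14A2, a urea transporter, had 526 counts in Target-AID, ABCG8, a sterol transporter, 516 and SLC35G3 176.

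Of 14 other inward rectifier genes, 8 were tested, and 4 were called with each guide, where 40.6% and 35.2% of all genes tested were. With HEKsite2, KCNJ12 (0.91 ± 0.121, adjusted p = 8.73e-08), KCNJ8 (0.24 ± 0.088, adjusted p = 0.0278) and KCNJ11 (0.26 ± 0.103, adjusted p = 0.0421) were higher in edgeR's test and KCNJ4 was lower (-0.52 ± 0.191, adjusted p = 0.0253). With RNF2, KCNJ12 was higher (0.79 ± 0.121, adjusted p = 1.95e-06) and KCNJ14, KCNJ3 and KCNJ4 were lower. Of 9 other bestrophin and calcium-activated chloride channel genes, 3 were tested: ANO6 (0.35 ± 0.084, adjusted p = 0.00085) and ANO2 (1.95 ± 0.540, adjusted p = 0.00344) were higher with HEKsite2, and 0 were called with RNF2.

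Cell surface receptors were 8 in number and secreted or extracellular proteins 7. EPHB6, a kinase-dead ephrin receptor, was at 133, 109 and 113 CPM with HEKsite2 and at 138, 105 and 84.9 with RNF2, with at most 1.01 CPM elsewhere. OR2B3, an olfactory receptor, was at 70.1, 58.8 and 59.2 CPM and at 79.6, 55.6 and 50.0 CPM, and had 0 counts in the other 27 libraries. Set against a floor of 3 counts over those libraries, its pooled level was at least 4812-fold higher in Target-AID. OLFM1, a secreted olfactomedin glycoprotein of the nervous system, was at 87.6, 65.2 and 65.8 CPM with HEKsite2 and at 75.2, 81.7 and 89.8 CPM with RNF2. It had 235 counts elsewhere, of which 76 and 71 were in ABEmax with HEKsite2 and with RNF2. LYG2, a goose-type lysozyme, reached 59.7 to 98.2 CPM in Target-AID and at most 0.748 elsewhere. Of 9 other olfactomedin family genes 4 were tested, and OLFML2A was the one called, lower with RNF2 (-0.89 ± 0.256, adjusted p = 0.00598 by edgeR's test).

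The immune genes were AIF1, a calcium-binding protein of macrophages and microglia with 2128 Target-AID counts, FCER1G, the gamma chain of Fc receptors with 1786, SLFN12 with 565, CIITA, the master activator of MHC class II genes, with 466, and NLRP3, the inflammasome sensor, with 335. CIITA and NLRP3 lay just inside the fold limit. CRYBA4, a crystallin of the eye lens, was at 112, 131 and 127 CPM with HEKsite2 and at 155, 117 and 97.1 with RNF2, against 16 counts in all other libraries. The homeobox genes RAX and NKX2-3 had 379 and 825 counts in Target-AID and 95 and 155 elsewhere.

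Among 11 long noncoding RNAs and pseudogenes, LINC00879 was the highest, at 138, 101 and 105 CPM with HEKsite2 and at 119, 101 and 82 with RNF2. It had 0 counts in the other 27 libraries, so its pooled level was at least 8331-fold higher in Target-AID against a floor of 3 counts. MTMR9LP, a transcribed pseudogene, stood at the other end with 2264 counts in Target-AID and 500 elsewhere. How reads shared by MTMR9LP and its parent gene, or by related olfactory receptors, were assigned is not given in the sources used here.

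Another 15 protein genes fell in none of these classes. VPS9D1, which holds a VPS9 domain of the kind that activates Rab GTPases, was at 191, 172 and 170 CPM with HEKsite2 and at 234, 174 and 125 with RNF2. It had a background of 1.89 to 4.58 CPM in every other library, and the group means outside Target-AID ran from 3.02 ± 1.01 (SD, n = 3) in GFP to 3.97 ± 0.529 in ABEmax with HEKsite2. PROB1, a proline-rich basic protein, was at 72.5, 62.8 and 64.8 CPM and at 82.8, 65.2 and 47.4 CPM, over a background of 0.797 to 2.83 CPM. TNS4, a tensin of focal adhesions, reached 71.5 to 115 CPM against 6 counts in all other libraries, and DUOXA1, a maturation factor of the dual oxidases, 79.5 to 112 CPM against 13 counts. Of 10 other VPS9 domain genes 8 were tested, and 1 was called higher with each guide, which with HEKsite2 was RIN3 (0.52 ± 0.206, adjusted p = 0.0421 by edgeR's test). The plot of the 6 marker genes by library shows Target-AID set apart from all other groups for each of them.

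**Figure D2:**
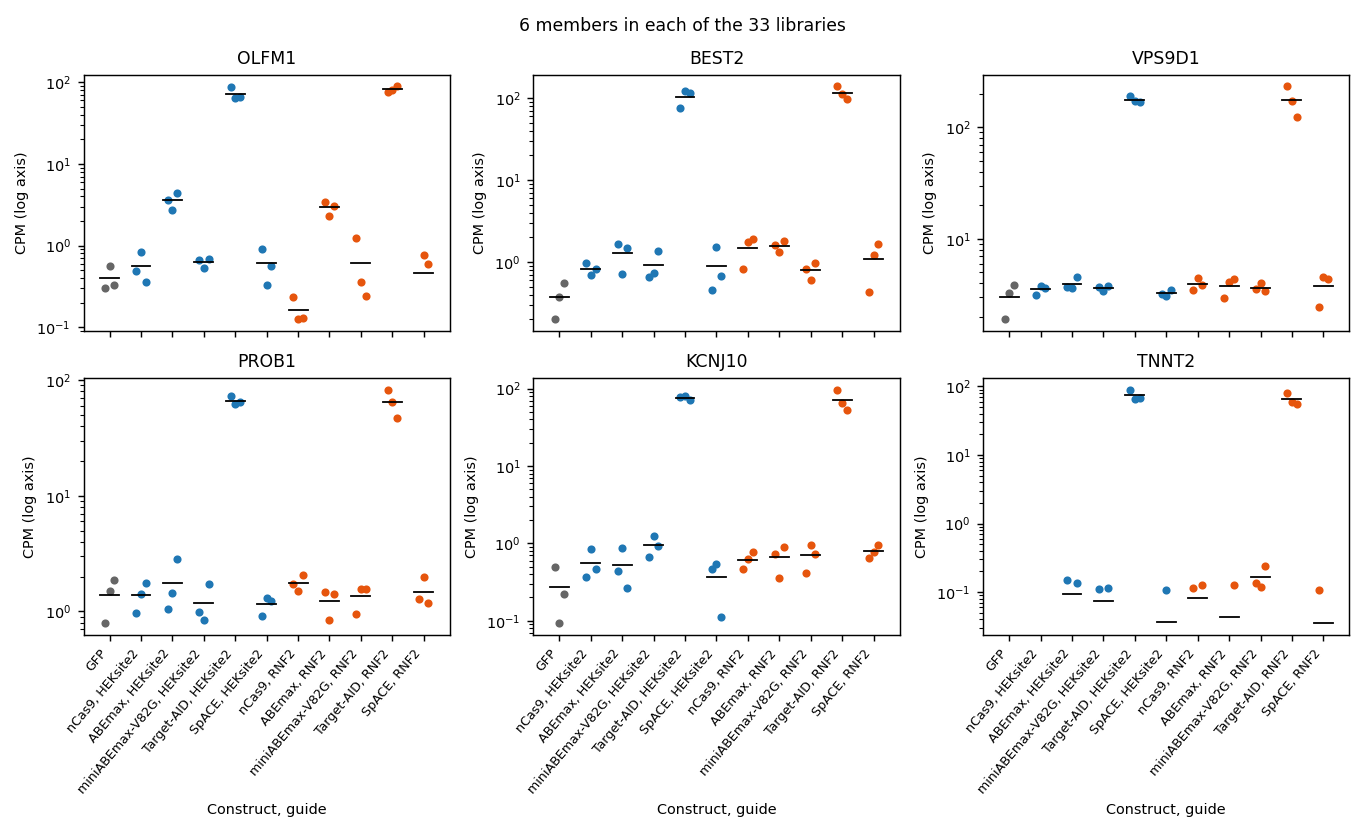
CPM in each library, on a log axis, of OLFM1, BEST2, VPS9D1, PROB1, KCNJ10 and TNNT2 by construct; grey points are GFP, blue HEKsite2 and orange RNF2, bars are means of 3 libraries, and a library at 0 is not drawn. Target-AID points lie above all others in each panel, and OLFM1 in ABEmax lies between them and the rest, at 2.29 to 4.44 CPM.

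Several members overlap a gene on the other strand. SIAE, which overlaps SPA17, had 439 counts in the 6 Target-AID libraries and 2052 in the other 27. For VPS9D1, the overlapping VPS9D1-AS1 had 348 and 1415 counts and ZNF276 had 1073 and 3734. CRYBB1, which overlaps CRYBA4, had 2 and 19, DUOXA2, which overlaps DUOXA1, had 0 and 2, and EIF3I, which overlaps MTMR9LP, had 22889 and 104200. SIAE and EIF3I thus took similar raw counts per library in Target-AID and elsewhere, with depth not taken into account. On the CPM scale EIF3I was called lower in Target-AID than in nCas9 with HEKsite2, at 406 ± 23.8 against 474 ± 17.4 CPM (-0.22 ± 0.056, edgeR adjusted p = 0.00158). SIAE was not called there. Whether counting used strand is not given in the sources used here.

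The 6 Target-AID libraries were not alike, and most of the group moved together across them. Each gene's CPM was divided by its own mean over the 6 libraries. The median over the 67 genes was 1.13, 0.951 and 1.02 in HEKsite2 replicates 1, 2 and 3, and 1.22, 0.937 and 0.722 in RNF2 replicates 1, 2 and 3. Over 11943 other genes with at least 80 counts in both Target-AID groups, these medians all lay between 0.990 and 1.00. The members were high in RNF2 replicate 1 and low in RNF2 replicate 3.

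The ratio of RNF2 replicate 1 to replicate 3 had a median of 1.69 over the members and 1.01 over the other genes. Replicate 1 was the highest and replicate 3 the lowest RNF2 library for 55 of 67 members (82.1%), and for 27.7% of the other genes. Among 124 other genes more than 2-fold higher than in nCas9 with both guides, this order held for 66.1% and the median ratio was 1.32. HBB, which the rule left out, followed the same order, at 5520, 4295 and 3649 CPM in RNF2 replicates 1, 2 and 3. The heat shock gene HSPA6 did so as well, at 1393, 1219 and 1031 CPM, as did DNAJB1 at 2542, 2130 and 1866 CPM. The replicates have no order beyond their labels, and no measure of plasmid or editor level was used here.

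Within this shared profile 61 members stayed inside a 2-fold range over the 6 libraries and 48 inside a 1.5-fold range. The other 6, singled out here for their values, were ADAMTS14, HCAR1, ARPP21, SCARF1, BEST2 and OLFM1. ADAMTS14, a secreted protease that trims procollagen, was at 226, 190 and 31.0 CPM in HEKsite2 and at 38.5, 179 and 21.0 CPM in RNF2. It was thus low in HEKsite2 replicate 3 and in RNF2 replicates 1 and 3, and its range relative to the shared profile was 6.90-fold. HCAR1, a lactate receptor, was at 14.8, 3.78 and 13.0 CPM and at 3.52, 11 and 9.13 CPM, low in HEKsite2 replicate 2 and RNF2 replicate 1. Its range was 4.53-fold, on 510 counts. BEST2 was low in HEKsite2 replicate 1, and OLFM1 was highest in RNF2 replicate 3, the library in which most members were lowest. Both had ranges just over 2-fold, 2.03 and 2.01. The line plot of relative levels shows the common course and these departures.

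**Figure D3:**
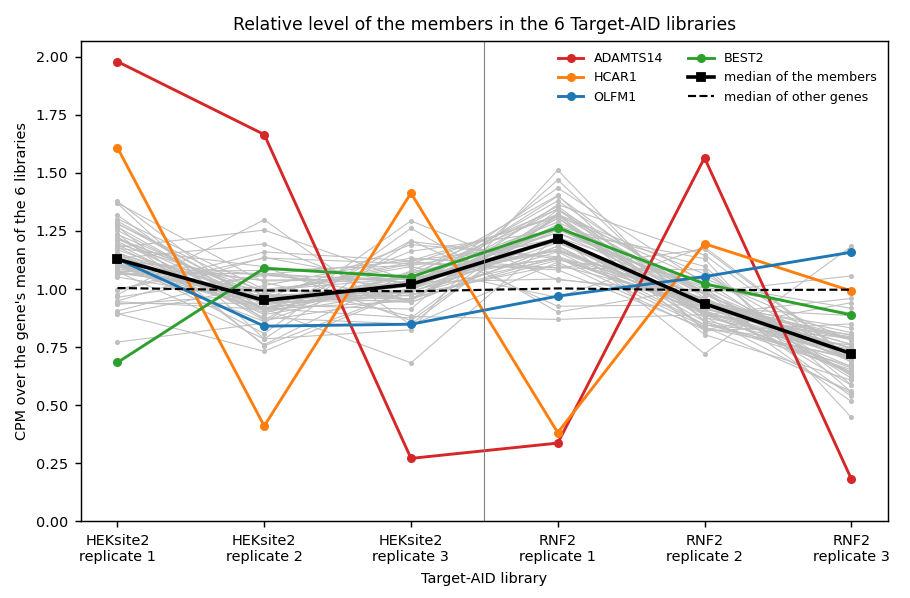
CPM of each member divided by its mean over the 6 Target-AID libraries, with lines that join a gene's values across libraries, which have no order. Most lines are highest in RNF2 replicate 1 and lowest in RNF2 replicate 3, where the median is 0.722, and ADAMTS14 and HCAR1 leave the bundle.

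The spread between replicates was unequal in the Target-AID groups. The median coefficient of variation of the members was 11.4% over the 3 HEKsite2 libraries and 29.5% over the 3 RNF2 libraries. Other genes in the same range of counts had 7.16% and 9.35%, but they were mostly read at higher counts. Counting error alone would give a median of 9.81% and 9.67% for the members and 5.29% and 5.30% for the other genes. The members' median spread was thus close to the median counting error with HEKsite2 and well above it with RNF2. A median does not hold for every member. ASTL, with 8653 to 12759 counts in each HEKsite2 library, still differed 1.30-fold between the highest and the lowest of them, more than counting error gives. ADAMTS14 had the highest in both groups, 69.7% and 110%.

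The choice of guide made no difference that the test could call. The rule fixes that both guide groups are high but not how they compare, so RNF2 was tested against HEKsite2 within Target-AID. By edgeR's quasi-likelihood F-test 0 of 67 members and 0 of all 14613 genes tested had an adjusted p under 0.05, a background of 0%. At an unadjusted p under 0.05 there were 3 members and 572 genes. Without RNF2 replicate 1, the high library, there were 30 members and 1300 of 14789 genes, with 0 called. Without any other single Target-AID library the members numbered 1 to 8. DESeq2 called 0 members, with 1 at an unadjusted p under 0.05. The median log2 difference of the members, RNF2 minus HEKsite2, was -0.10, and 11 of 67 were above 0, against a median of 0.00 over all genes. RNF2 replicate 3, the low library, is among the 3 on one side of this comparison.

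The 3 members at an unadjusted p under 0.05 were lower with RNF2, all with an adjusted p of 1. ADAMTS14 had a mean of 149 ± 104 CPM (SD, n = 3) with HEKsite2 and 79.4 ± 86.4 with RNF2, a difference that its spread between replicates covers. LYG2 had 88.7 ± 8.56 and 75.7 ± 16.7 CPM, and TGM7, a transglutaminase, 25.4 ± 5.65 and 20.6 ± 4.30 CPM. Without RNF2 replicate 2, in which ADAMTS14 was high, ADAMTS14 was called lower, and it was also called where no filter on low counts was used. VPS9D1 was as level as any, at 177 ± 11.3 with HEKsite2 and 177 ± 54.8 with RNF2. The scatter of the means with both guides shows the 67 genes along the line of equality.

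**Figure D4:**
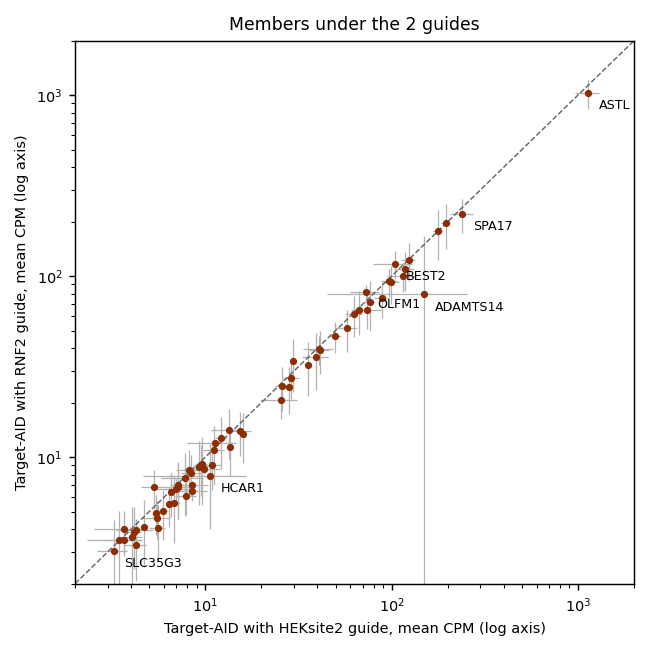
Mean CPM of each member in Target-AID with HEKsite2 (x) and with RNF2 (y), on log axes, with bars for the SD over 3 libraries, cut at the axis limit where they reach it. The points follow the line of equality from the low-count genes to ASTL at 1131 and 1029 CPM, and ADAMTS14 has the widest bars.

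In SpACE, the dual editor of the study, which also carries a cytidine deaminase, the group was read at the low level of the controls. The rule caps the counts of every group other than Target-AID, SpACE included, so a low level here is part of how the genes were chosen. Against nCas9 with the same guide, 2 of 67 members were called with HEKsite2, where 21% of all genes tested were, and 0 with RNF2, where 14.7% were. The members' median log2 fold change was 0.00 with both guides. Members with no counts in either group, such as LINC00879 and OR2B3, are part of that median. They passed the filter on low counts because it was run over all 33 libraries, with Target-AID among them. The members called and the share of all genes called therefore cannot be compared on equal terms, here or in the comparisons without Target-AID below. Of the 67 members, 54 had under 100 counts over all 27 libraries outside Target-AID, which limits what these comparisons can detect. With HEKsite2, MTMR9LP was higher (0.95 ± 0.341, edgeR adjusted p = 0.0422), at 2.84 ± 0.897 against 1.47 ± 0.240 CPM, and NKX2-3 was lower (-1.43 ± 0.508, adjusted p = 0.0397). Both calls were lost without single libraries, MTMR9LP without any one nCas9 library or SpACE replicate 1 or 2, and NKX2-3 without nCas9 replicate 3 or SpACE replicate 1 or 3. With RNF2, 4 members had an unadjusted p under 0.05 and DESeq2 called 0, with 3 at an unadjusted p under 0.05. VPS9D1 was at 3.25 ± 0.234 CPM in SpACE and 3.53 ± 0.333 in nCas9 with HEKsite2, and at 3.79 ± 1.16 and 3.94 ± 0.512 with RNF2.

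In ABEmax 1 member was called, OLFM1, which was higher. With HEKsite2 it was at 3.57, 2.74 and 4.44 CPM in ABEmax and at 0.485, 0.841 and 0.353 CPM in nCas9, so the groups did not overlap. The log2 fold change was 2.69 ± 0.436 (edgeR adjusted p = 2.21e-05), and by counts, 76 against 13, the ratio was 6.70 with a 95% exact counting interval of 3.69 to 13.2. With RNF2 it was at 3.43, 2.29 and 3.08 CPM in ABEmax and at 0.232, 0.125 and 0.128 CPM in nCas9. There the log2 fold change was 4.05 ± 0.576 (adjusted p = 3.36e-06) and the ratio of 71 to 4 counts was 18.2 with an interval of 6.80 to 68.6. Intervals cover counting error only. The share of all genes tested that were called was 15.9% with HEKsite2 and 11.2% with RNF2. The 1 call in 67 is below these shares, but members with few or no counts in both groups could hardly be called.

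The ABEmax level of OLFM1 remained far below that in Target-AID, as the rule requires, where it was 72.9 ± 12.8 and 82.2 ± 7.34 CPM. In miniABEmax-V82G it was at 0.625 ± 0.0869 CPM with HEKsite2 and at 0.611 ± 0.539 with RNF2, and its difference from nCas9 was not called. OLFM1 was called higher in ABEmax with both guides under each alternative run. CIITA had 21 counts in ABEmax and 7 in nCas9 with HEKsite2, 3.44 times by counts (95% counting interval 1.41 to 9.57), and was called only where no filter was used or nCas9 replicate 3 was left out. miniABEmax-V82G had 0 members called with either guide, against backgrounds of 10.3% and 12.6%. At an unadjusted p under 0.05 edgeR had 0 and 4 members, and DESeq2 called 0 with both guides.

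The difference between editor and nCas9 was also compared between guides. Over SpACE, ABEmax and miniABEmax-V82G, 0 members had an adjusted p under 0.05 for this interaction in edgeR's test, against backgrounds of 0.0274%, 0% and 0.0137%. The members with an unadjusted p under 0.05 were 4 for SpACE and 0 for each of the others.

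A few members were called between the controls, nCas9 and GFP. With HEKsite2, nCas9 had 2 members lower than GFP, SPA17 (-0.63 ± 0.187, edgeR adjusted p = 0.00688) and MYBPC2 (-1.68 ± 0.561, adjusted p = 0.0154). The background was 38.4% of genes tested. SPA17 was at 13.1 ± 0.320 CPM in GFP and at 8.54 ± 1.30 in nCas9 with HEKsite2. With RNF2, nCas9 had 6 members called, against a background of 41.5%. SPA17 was lower again (-1.01 ± 0.196, adjusted p = 6.36e-05), at 6.48 ± 0.657 CPM, and so was MYBPC2 (-1.37 ± 0.528, adjusted p = 0.0344). MTMR9LP (1.30 ± 0.373, adjusted p = 0.00481) and BEST2 (1.95 ± 0.642, adjusted p = 0.0129) were higher. LRG1 had 10 counts against 1 in GFP, 13.1 times by counts (95% counting interval 1.86 to 568, edgeR adjusted p = 0.0150), and PAPL had 5 counts against 0 (adjusted p = 0.0294). With RNF2 the call of BEST2 was lost without GFP replicate 1 or nCas9 replicate 3, that of LRG1 without GFP replicate 1 or 3, that of PAPL without any one GFP library or nCas9 replicate 1, and that of MYBPC2 without GFP replicate 2 or nCas9 replicate 2 or 3. With HEKsite2 MYBPC2 was lost without GFP replicate 2 or nCas9 replicate 3. With only the groups compared in the fit, 1 member was called with HEKsite2 and 2 with RNF2. Both nCas9 comparisons share the GFP libraries.

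The tested genes next to the members were called higher in Target-AID no more often than all genes tested. For each member the nearest annotated gene on each side was taken, 134 genes in all, at a median distance of 15658.5 bases. Of these, 60 had enough counts for the test of Target-AID against nCas9. With HEKsite2, 8 were higher and 16 lower (13.3% and 26.7%), against 21.5% and 19.1% of all genes tested. With RNF2, 10 were higher and 12 lower (16.7% and 20.0%), against 19.4% and 15.8%. Their median log2 fold change was -0.09 and -0.10.

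Neighbours called higher with both guides included DUSP2, ZNF496, CCDC130 and PON2. DUSP2, a phosphatase of MAP kinases whose gene lies 4605 bases from ASTL on the same strand, rose from 3.17 ± 0.470 to 5.73 ± 0.546 CPM with HEKsite2 (0.86 ± 0.189, adjusted p = 0.00032 by edgeR's test) and from 2.74 ± 0.558 to 5.48 ± 0.933 with RNF2 (0.99 ± 0.194, adjusted p = 8.8e-05). ZNF496, near NLRP3, rose by 0.64 ± 0.109 and 0.68 ± 0.107 on the log2 scale. CCDC130, near CACNA1A, rose by 0.33 ± 0.097 and 0.50 ± 0.097, and PON2, near ASB4, by 0.40 ± 0.10 and 0.32 ± 0.101.

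Neighbours that fell included LINC00485, the nearest on 1 side of IGF1 at 327444 bases, which went from 31.7 ± 6.96 to 10.9 ± 1.57 CPM with HEKsite2 (-1.54 ± 0.198, adjusted p = 4.76e-08 by edgeR's test) and from 47.5 ± 5.96 to 16.0 ± 4.68 CPM with RNF2. CXCR4, a chemokine receptor whose gene is the nearest on 1 side of THSD7B, fell by 0.71 ± 0.118 and 0.52 ± 0.119 on the log2 scale. HOOK2, 4545 bases from BEST2, fell by 0.62 ± 0.113 and 0.42 ± 0.116. FAM71E1, 467 bases from MYBPC2, fell by 0.89 ± 0.245 and 0.73 ± 0.254, and its call with RNF2 was lost without nCas9 replicate 2 or Target-AID replicate 1. The 74 neighbours too low to test had a median of 1 count over the 6 Target-AID libraries, and 29 of them had 0. The highest of them, SLFN11 beside SLFN12, had 37 counts in Target-AID and 92 in the other 27 libraries. The plot of neighbours by distance shows calls in both directions with each guide.

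**Figure D5:**
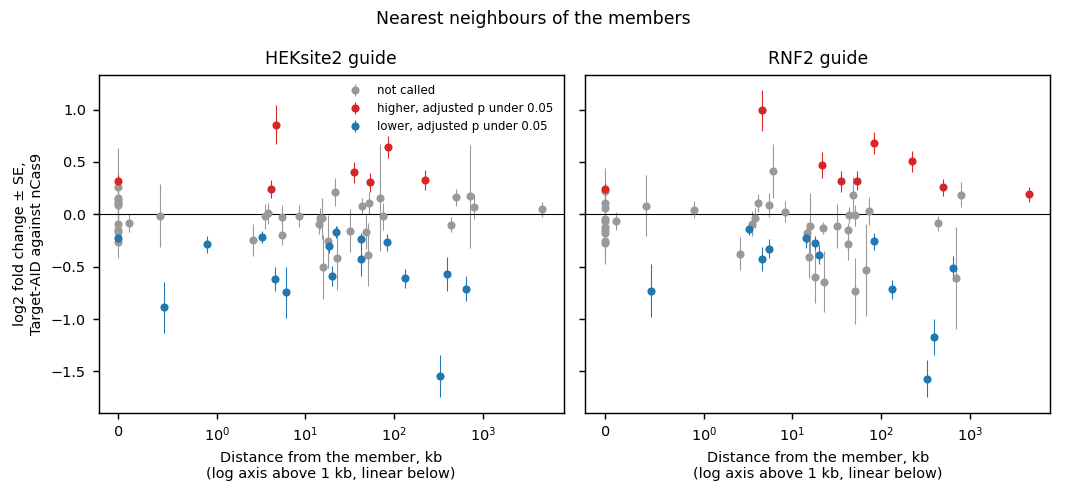
Log2 fold change, Target-AID against nCas9, of the tested neighbours of the members, by distance in kb from the member (0 where the genes overlap; linear below 1 kb and logarithmic above), with bars for the SE, red where called higher, blue where called lower and grey where not called. One tested neighbour is not drawn. Points lie on both sides of 0 with each guide, and the lowest is LINC00485, at -1.54 with HEKsite2 and -1.57 with RNF2.

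Lists of genes of other tissues were counted in the same contrast. Of all genes tested in it, 21.5% were higher and 19.1% lower with HEKsite2, and 19.4% and 15.8% with RNF2. Of 13 erythroid genes other than HBB and HBD, 0 had enough counts to test, and their summed level was 0.873 to 1.65 CPM in Target-AID and 0.970 to 1.53 CPM in nCas9 with HEKsite2. AHSP, HBG1 and HBG2 were at 0 in all 6 Target-AID libraries. Of 14 liver genes 4 were tested. SERPINA1 had 51 and 34 counts in Target-AID with HEKsite2 and RNF2 and 0 and 0 in nCas9, and APOB had 31 and 32 against 0 and 1, and both were called higher with both guides. CPS1 was lower with both, by 0.38 ± 0.086 and 0.30 ± 0.086 on the log2 scale, and APOC3, APOH, FGA and FGB were at 0. The liver sum was 34.5 to 39.3 CPM in Target-AID and 43.4 to 45.1 in nCas9 with HEKsite2.

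Of 14 neuronal genes tested of 22, 3 were higher and 3 lower with HEKsite2, and 1 was higher and 6 lower with RNF2. GAD1 was higher with both guides, and SYT1, SYP and NEFL were lower with both. Their sum was 191 to 199 CPM in Target-AID and 224 to 227 in nCas9 with HEKsite2. Of 8 other glial genes tested, OLIG2 (0.72 ± 0.166 and 1.27 ± 0.171) and MBP (0.94 ± 0.154 and 0.84 ± 0.149) were higher with both guides, and GFAP, at 20 and 21 counts in Target-AID against 20 and 30 in nCas9, was not called. The glial sum without KCNJ10 was 90.5 to 98.0 CPM against 78.2 to 82.8 with HEKsite2.

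Of 6 cancer-testis genes tested of 20, 0 were higher, MAGEA6 and MAGEA1 were lower with HEKsite2 and PRAME with RNF2, and CTAG1B, GAGE1, PAGE1, SSX1 and SSX2 were at 0. Of 6 mesenchymal line genes tested, COL6A3 was higher with both guides, with 74 and 54 counts against 6 and 4, VIM was lower with both and LUM with RNF2. Of 4 retinal pigment epithelium genes tested, 0 were higher and PMEL was lower with both guides. In the HEK293 list, 5 of 11 tested genes were lower with HEKsite2 and 6 with RNF2, led by VIM and KRT8, and 0 were higher. Of the cytosolic heat shock genes, 18 of 20 were higher with HEKsite2 and 19 with RNF2, with a median log2 fold change of 0.95 and 0.78. HSPA1B, whose reads are hard to tell from those of its near-identical copy HSPA1A, rose by 3.39 ± 0.064 and 3.18 ± 0.064, HSPA6 by 6.52 ± 0.140 and 6.64 ± 0.144, and DNAJB1 by 3.70 ± 0.086 and 3.47 ± 0.085. The part of the heat shock genes in the levels of the members was not tested.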

How the data were processed

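The authors deposited raw counts for 26475 gene symbols in 33 libraries, made with a stranded total RNA kit from sorted HEK293T cells. The submitters' processing notes name Picard 2.7, GATK 3.8.1, STAR and the build GRCh38 (hg38). Neither counting tool nor strand setting nor annotation is given in the sources used here. Columns were assigned to samples by the construct, guide and replicate in their names.

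The members were found by the rule on summed counts. They and all gene lists were chosen with earlier results of these data known, and the lists therefore support nothing on their own. edgeR 4.0.16 (R 4.3.3) filtered genes by filterByExpr, which left 14613, all 67 members among them, scaled counts by TMM and fitted all 33 libraries with 1 mean per group (22 residual degrees of freedom). Contrasts were tested two-sided by the quasi-likelihood F-test, with Benjamini-Hochberg adjustment over all genes tested, and called at an adjusted p under 0.05. CPM are on TMM-scaled library sizes. Values after ± in a log2 fold change are standard errors and after a CPM mean are SDs over 3 libraries. Counting intervals are exact 95% intervals. Positions and promoters are from RefSeq GRCh38.p14 (58 members matched by symbol, 6 by gene number, 3 by synonym), exon lengths from GENCODE.

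The genes named are the 6 markers, the 12 other members with the most Target-AID counts, those next to the limits, and called members, neighbours and list genes by smallest p or largest change. Other members were named after their values were seen. The procedure was tested on simulated data. Alternatives were RLE scaling, no filter, only the groups compared, DESeq2 1.42.0, each library left out, the replicate number as a block, other limits of the rule and, added after seeing the data, scaling without the members, HBB, HBD and CSH2, and neighbours within 100 kb. A few genes are not reported here.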

Additional observations from a re-analysis of the deposited data

How the results depend on the processing

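Depth limits the comparisons outside Target-AID, where 54 of 67 members had under 100 counts over 27 libraries. The rule gave 60 to 67 genes when replicate 1, 2 or 3 of every group was left out, 92 and 54 at 5 and 20 times, 84 and 51 at sums of 40 and 160, and 64 on the CPM scale. Without the filter on low counts, the guide comparison in Target-AID had 1 member called and ABEmax with HEKsite2 had 2. With only the groups compared in the fit, SpACE with HEKsite2 had 1, nCas9 against GFP with HEKsite2 had 1 and with RNF2 had 2. DESeq2 gave 1 for SpACE with HEKsite2. The cause of these differences was not tested. With single libraries left out, calls ranged from 0 to 1 for the guide comparison, for SpACE with HEKsite2 and for SpACE with RNF2, from 1 to 2 for ABEmax with HEKsite2, from 1 to 3 and from 3 to 5 for nCas9 against GFP with HEKsite2 and RNF2, and from 18 to 27 for neighbours. No result reversed, and the calls of single genes were lost 29 times, counted over genes and settings, so that a gene lost in several settings counts in each. All genes within 100 kb gave 24 higher and 54 lower of 197 tested with HEKsite2, and 21 and 46 with RNF2.

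In no comparison was the correlation of deviations over 0.1 in every pair of same-numbered libraries, although all 3 pairs were above 0 for the guide comparison in Target-AID and for ABEmax, miniABEmax-V82G and SpACE with RNF2. With the replicate block, 2 members were called for SpACE with HEKsite2, 1 and 1 for ABEmax, 2 and 6 for nCas9 against GFP, 0 for the guide comparison, and 24 and 25 neighbours. The block changed no call count by over 1.5 times.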

Other observations

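HBB and HBD, which the rule left out, were read in 1 library outside Target-AID above the level of the rest. SpACE with RNF2 replicate 2 held 21 counts of HBB and 12 of HBD, while each of the other 26 libraries held at most 2 of HBB and at most 3 of HBD. In the same library ASTL had 2 counts, and 44 of the 67 members had at least 1 count. The other 2 libraries of that group had 33 and 34 members with a count, and the 27 libraries ranged from 29 to 46. CSH2 differed between Target-AID and the rest in the opposite direction to HBB and HBD. It was at 0.107 to 0.317 CPM in the Target-AID libraries and at 1014 to 3275 CPM in the other 27. HBB was at 3649 to 5520 CPM in Target-AID and at most at 2.32 CPM elsewhere, and HBD at 3792 to 5714 and at most at 1.33 CPM. Where the reads of CSH2, HBB and HBD came from was not tested.

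The library outside Target-AID with the most members read was ABEmax with RNF2 replicate 3, with 46. The 46 members that had at most 60 counts outside Target-AID summed to 4.99 CPM there (on unadjusted library totals), the highest of the 27 libraries, and the lowest was 1.45, in GFP replicate 3.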
